A study of Homo sapiens with 16 samples.

Results

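The genes that move zinc, iron and copper into, within and out of the cell were followed through 16 RNA sequencing libraries of the breast cancer line MDA-MB-231, which is triple-negative and of human origin. They were chosen by name from the protein-coding genes of the count tables. The choice took in the numbered genes of the SLC30A, SLC39A, SLC11A and SLC31A families, SLC40A1, the metallothioneins MT1E, MT1F, MT1G, MT1M, MT1X and MT2A, and TFRC, FTH1 and FTL. This gave 38 genes of 60719, made up of 14 zinc importers, 10 zinc exporters, 6 metallothioneins, 6 iron genes and 2 copper genes. The libraries came from parental 231 cells, with unedited TXNIP, and from 231:TKO cells, in which TXNIP was knocked out with a CRISPR/Cas9 plasmid. Each population was sequenced untreated (2 replicates) and after 48 hours with a non-targeting siRNA, siNT, or an siRNA against Myc, siMyc (3 replicates each). All groups carry the genetic background of MDA-MB-231, and the 231:TKO cells descend from clones grown from single cells, so that a difference from parental 231 may be that of a clone. Untreated replicates of both populations, and those of 231:TKO with siRNA, are described as biological replicates in the study. For parental 231 with siRNA the sources used here do not say so, and p-values there measure a spread between libraries that may be technical.

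Zinc enters the cytoplasm through the ZIP proteins of the SLC39A family and leaves it, to the outside or into organelles, through the ZnT proteins of the SLC30A family. Metallothioneins are small cysteine-rich proteins that bind zinc and copper, and the zinc-sensing factor MTF1 turns on their genes and SLC30A1 through metal response elements in their promoters. Iron bound to transferrin enters through the transferrin receptor TFRC, crosses the endosome membrane through SLC11A2 (DMT1), is stored in ferritin, built from FTH1 and FTL, and leaves through ferroportin, SLC40A1. Iron regulatory proteins stabilise the TFRC mRNA and block translation of the ferritin and ferroportin mRNAs when iron is scarce, so an mRNA level of the latter genes does not stand for a protein level. TFRC is a known target of Myc, and growing tumour cells commonly hold much of it.

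The libraries held from 18953668 to 59799444 counts in genes, from a kit that keeps strand. Levels are given in CPM, the count of a gene relative to the total of its library after edgeR's TMM scaling. Single reads were counted in untreated cells and read pairs after siRNA, so levels are not compared across that line. The siRNA-treated parental 231 libraries carry another number in their names and were counted with a later Ensembl release than the siRNA-treated 231:TKO libraries. Marker genes of this cell line, VIM (1810 to 3120 CPM) and CD44 (571 to 1360), were high and the hormone receptor genes ESR1 (0.305 CPM at most) and PGR (0.0814 at most) were near 0. Markers of blood cells and liver were at most 1.48 (PTPRC) and 0.0641 CPM (ALB), and HBB was at 0. The fibroblast marker COL1A1 lay between 4.23 and 20.3 CPM. CDH1 and GATA3, listed beforehand as low or absent in this line, lay between 0.267 and 9.42 and between 11.6 and 30.7 CPM. TXNIP had 283 and 283 CPM in parental 231 and 12.4 and 45.5 in 231:TKO. It lay between 302 and 323 CPM in parental 231+siNT and between 6.54 and 7.92 in 231:TKO+siNT. MYC fell from between 121 and 144 CPM with siNT to between 58.1 and 58.8 with siMyc in 231:TKO, and from between 127 and 132 to between 64.5 and 67.6 in parental 231. A difference in bulk RNA does not tell fewer cells with a transcript from less of it per cell.

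A pair of libraries, parental 231+siNT replicate 1 and parental 231+siMyc replicate 3, stood apart from the others of their groups. Their deviations from the group mean ran against gene length, with a Spearman rho over genes of -0.59 in each, against between 0.42 and 0.55 in the other siRNA-treated parental 231 libraries. Deviations from a group mean cancel within the group, so the values of the other libraries partly mirror those of the pair. Ferritin and the metallothioneins, which are short, were high in this pair, and many of the longer genes were low, with exceptions such as SLC30A7 (8600 bases), at 0.15 and 0.29 above the other libraries of its groups on the log2 scale, and SLC39A4 (4982 bases), at 0.38 and 0.52. In parental 231+siNT replicate 1, MT1E was 0.68 and MT1X 0.59 above the mean of the other 2 libraries on the log2 scale, and TFRC was 0.42 and SLC11A2 0.37 below it (log2 differences of -0.42 and -0.37). In parental 231+siMyc replicate 3, MT2A was 0.59 above and TFRC and SLC11A2 were again lower, at -0.42 and -0.38. The siMyc comparison in parental 231 is therefore also given with a factor for the pair or without it, and the knockout comparison under siNT without parental 231+siNT replicate 1.

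**Figure D1:**
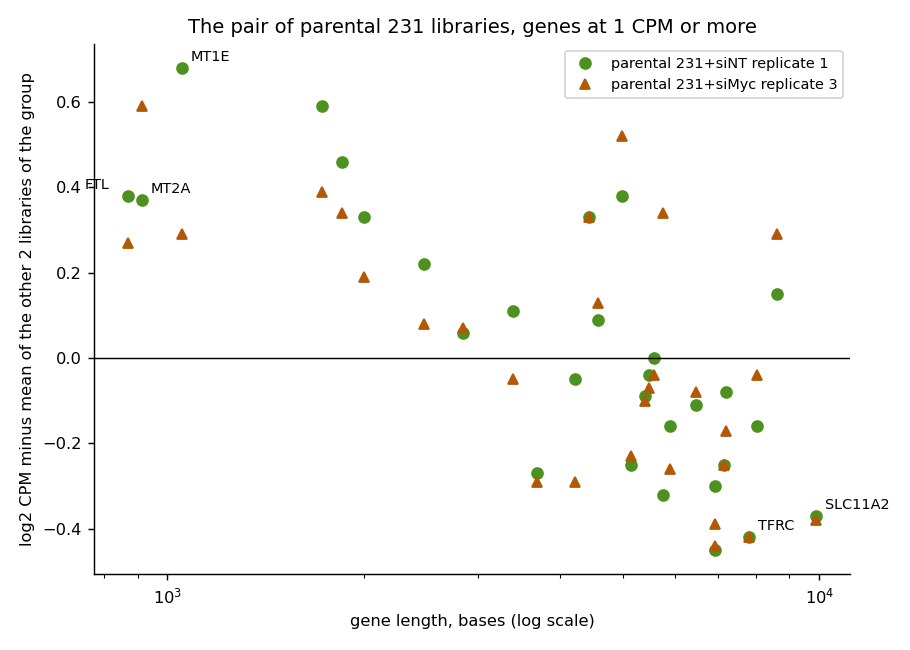
Log2 CPM of each of the 29 metal genes with a mean of at least 1 CPM in the pair of parental 231 libraries, minus the mean of the other 2 libraries of its group (y axis), against gene length in bases on a log scale (x axis). Circles are parental 231+siNT replicate 1 and triangles parental 231+siMyc replicate 3, and the short MT1E (0.68) and MT2A (0.37) lie above 0 while the long TFRC (-0.42) and SLC11A2 (-0.37) lie below it.

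The promoters of the zinc-responsive genes were searched for the sequence they are known for. RefSeq promoter windows on GRCh38.p14 (250 bases before to 50 after the start) were matched for 29 of the 38 genes. Metal response elements have the core TGCGCNC or TGCACNC, searched for on both strands, with overlapping matches counted separately. The 250 bases before the start are given for MT2A, MT1X and SLC30A1, the genes of this class that differed between 231:TKO and parental 231 and had a window, with the cores in capitals (on the other strand these read GNGCGCA or GNGTGCA). MT2A is shown at chr16:56608334-56608583 and MT1X at chr16:56682220-56682469, both on the plus strand, and SLC30A1 at chr1:211579162-211579411 on the minus strand.
MT2A: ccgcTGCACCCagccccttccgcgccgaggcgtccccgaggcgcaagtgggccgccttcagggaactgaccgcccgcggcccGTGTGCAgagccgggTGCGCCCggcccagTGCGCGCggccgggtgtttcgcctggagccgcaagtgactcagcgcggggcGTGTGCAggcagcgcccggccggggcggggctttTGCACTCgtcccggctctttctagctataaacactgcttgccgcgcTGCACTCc
MT1X: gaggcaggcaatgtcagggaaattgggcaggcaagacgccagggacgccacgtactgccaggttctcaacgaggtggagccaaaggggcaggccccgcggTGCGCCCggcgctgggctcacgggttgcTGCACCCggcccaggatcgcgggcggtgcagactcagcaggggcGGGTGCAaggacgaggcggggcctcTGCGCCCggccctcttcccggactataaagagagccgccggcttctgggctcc
SLC30A1: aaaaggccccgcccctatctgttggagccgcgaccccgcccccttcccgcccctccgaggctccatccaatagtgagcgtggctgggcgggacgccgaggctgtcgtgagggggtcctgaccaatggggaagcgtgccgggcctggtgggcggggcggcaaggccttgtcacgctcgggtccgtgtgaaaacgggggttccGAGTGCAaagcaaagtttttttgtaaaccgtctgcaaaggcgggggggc
MT2A held 8 cores in its window, 7 of them before the start, MT1X held 4, and SLC30A1 held 2, 1 of them before the start. The iron genes TFRC and SLC40A1 held 3 and 2, and the exporters SLC30A2 and SLC30A3 held 3 and 2. At least 1 core was found in 12 of the 29 windows, where 29.6% of all 35116 promoters hold one. There were 2 or more in 7 windows (8.6% of all promoters) and 4 or more in 2 (0.601%). The E-box CACGTG, the letters Myc binds best, was found in 1 of the 29 windows, that of SLC39A11, and in 7.26% of all promoters. These are matches of letters, not binding.

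Of the 38 genes, 29 had a mean of at least 1 CPM over the 16 libraries. SLC30A2 and SLC39A12, an importer of the brain, had 0 counts in every library, which allows up to 0.153 CPM (3 counts) in the shallowest. SLC30A8, the zinc transporter of insulin granules, SLC39A2, SLC39A5 and MT1G reached at most 0.0498, 0.0509, 0.0612 and 0.0343 CPM. MT1M reached 0.166 CPM and SLC11A1, the phagosome iron transporter of macrophages, 0.581. SLC30A10, a manganese exporter, lay between 0.0667 and 2.04 CPM.

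Levels per kilobase of gene length are given for libraries counted as pairs, since FTH1 was at between 170 and 232 CPM in the single-read libraries and between 1940 and 3040 in the paired ones, a gap whose cause was not tested. Ferritin stood far above the other iron genes. In parental 231+siNT, FTL had 2200 ± 352 CPM per kilobase (SD, n = 3) and TFRC 51.0 ± 8.28, and SLC40A1 was the lowest of the iron genes over 1 CPM at 2.46 ± 0.122. Of the zinc importers, SLC39A7, which lets zinc out of the endoplasmic reticulum, was the highest in both siNT groups, at 111 CPM per kilobase in parental 231+siNT and 106 in 231:TKO+siNT. The next importers, SLC39A6 at 25.5 and 24.8 and SLC39A13 at 24.0 and 20.6, were close to each other. Of the metallothioneins, MT2A was the highest, at 358 ± 55.0 CPM per kilobase in parental 231+siNT against 60.8 ± 17.7 for MT1E and 16.8 ± 4.35 for MT1X. Among the exporters SLC30A1 led in parental 231+siNT with 16 ± 1.21, ahead of SLC30A9 at 14.0, and was the third in 231:TKO+siNT with 9.84 ± 0.394, behind SLC30A5 at 12.4 and SLC30A9 at 11.1.

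The response to Myc knockdown was first measured in 231:TKO cells. The mRNAs of iron uptake genes moved against those of storage and export genes: the receptor TFRC and the transporter SLC11A2 fell, and FTH1, FTL and SLC40A1 rose. With edgeR's quasi-likelihood test, 7 of the 31 metal genes tested rose and 6 fell (adjusted p of at most 0.05 with the Benjamini-Hochberg adjustment over all genes), where 13.3% of all 22450 genes tested rose and 13.9% fell. The iron genes held 5 of these calls among 6 tested, the importers 5 of 11, the exporters 1 of 8, the metallothioneins 1 of 4 and the copper genes 1 of 2. The median log2 fold change was 0.07 over the 31 genes and 0.01 over all genes.

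TFRC (ENSG00000072274, chr3:196027183-196082096) had 776, 738 and 784 CPM in 231:TKO+siNT and 470, 495 and 539 in 231:TKO+siMyc. All 3 siMyc libraries lay below all 3 siNT libraries. The log2 fold change was -0.65 (SE 0.051, edgeR adjusted p = 6.3e-09), and TFRC was 1.57-fold lower. SLC11A2 (chr12:50979401-51028566), which moves ferrous iron out of the endosome, went from 55.8, 57.1 and 54.7 CPM to 48.9, 47.8 and 50.2, also without overlap (log2 fold change -0.22, SE 0.055, edgeR adjusted p = 0.00345).

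FTL (chr19:48965309-48966879), the light chain of ferritin, had 4010, 4410 and 4080 CPM with siNT and 5460, 5550 and 5170 with siMyc. The groups did not overlap, and FTL rose 1.27-fold (log2 fold change 0.34, SE 0.048, edgeR adjusted p = 1.4e-05). FTH1 (chr11:61959718-61967634), the heavy chain that oxidises iron for storage, went from 2240, 2300 and 2260 CPM to 2720, 2700 and 2770 (log2 fold change 0.23, SE 0.042, edgeR adjusted p = 0.000192). Ferritin has many processed pseudogenes that share sequence with it. The 25 annotated copies of FTH1 held between 0.655% and 1.7% of the counts of the gene and its copies over all libraries. The 16 copies of FTL held between 0.17% and 0.271%. These shares do not show reads that were counted for neither a gene nor its copies. SLC40A1 (chr2:189560590-189583758), the exporter, had 13.7, 12.6 and 12 CPM with siNT and 17.4, 16.8 and 19.6 with siMyc. It rose 1.37-fold (log2 fold change 0.45, SE 0.081, edgeR adjusted p = 0.000187).

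The plot of iron gene levels shows the same libraries side by side. In a single fit of the 12 siRNA-treated libraries, which takes in the pair that stood apart, FTH1 and SLC11A2 had the same direction and missed the threshold (log2 fold changes of 0.26 and -0.20, edgeR adjusted p = 0.0958 and 0.357). TFRC, FTL and SLC40A1 passed in that fit too.

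**Figure D2:**
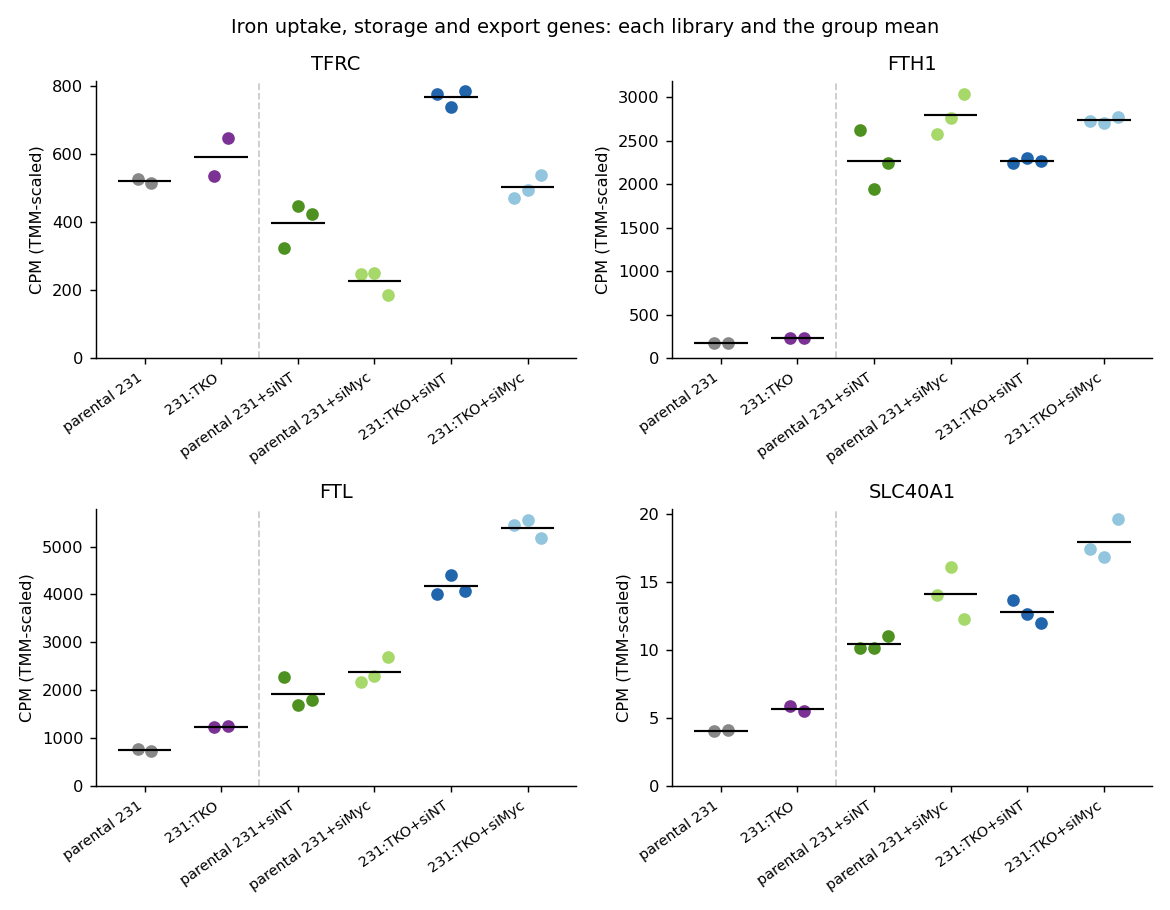
CPM (y axis, from 0) of TFRC, FTH1, FTL and SLC40A1 in each library (points) and the group mean (line) for the 6 groups (x axis). The dashed line divides libraries counted as single reads (left) from those counted as pairs, and in 231:TKO the 3 siMyc points of TFRC (470 to 539 CPM) lie below the siNT points (738 to 784) while those of FTL (5170 to 5550) lie above (4010 to 4410).

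Zinc importers moved in both directions in 231:TKO+siMyc. SLC39A8, which carries zinc, manganese and iron across the plasma membrane, fell from 59.6, 60.0 and 61.4 CPM to 42.3, 43.2 and 48.6 (log2 fold change -0.47, SE 0.059, edgeR adjusted p = 3.6e-06). SLC39A14, a close relative with the same range of metals, went from 121, 135 and 126 CPM to 99.9, 102 and 107 and SLC39A6, a plasma membrane zinc importer, from 92.6, 88.3 and 93.5 to 74.1, 77.6 and 85.7. Both fell, by 0.34 and 0.24 on the log2 scale (edgeR adjusted p = 3.3e-05 and 0.00254). SLC39A11, an intracellular transporter, rose from 14.2, 16.6 and 14.8 CPM to 22.6, 19.0 and 22.7 (log2 fold change 0.46, SE 0.081, edgeR adjusted p = 0.000151). SLC39A13, which releases zinc from vesicles of the early secretory pathway, rose from 89.4, 102 and 91.2 CPM to 128, 124 and 110 (log2 fold change 0.32, SE 0.063, edgeR adjusted p = 0.000432). In none of these 5 importers did the groups overlap, but they were named for passing the test on the same libraries, so this adds no support. In the single fit of 12 libraries SLC39A14 and SLC39A6 missed the threshold (log2 fold changes of -0.31 and -0.21, edgeR adjusted p = 0.127 and 0.233), while SLC39A8, SLC39A11 and SLC39A13 passed. SLC39A10, a plasma membrane importer, had 89.3, 78.9 and 89.2 CPM with siNT and 84.2, 86.5 and 99.6 with siMyc, and these groups overlapped (log2 fold change 0.04, edgeR adjusted p = 0.759).

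Of the exporters, SLC30A6, which works in the early secretory pathway as a partner of SLC30A5, fell from 47.4, 45.0 and 44.3 CPM to 34.5, 38 and 41.1 (log2 fold change -0.30, SE 0.065, edgeR adjusted p = 0.00133), and missed the threshold in the 12-library fit (-0.27, edgeR adjusted p = 0.0626). SLC30A1, the zinc exporter of the plasma membrane, had 59.5, 55.3 and 59.2 CPM with siNT and 62.4, 62.0 and 73.7 with siMyc, without overlap but short of the threshold (log2 fold change 0.15, SE 0.064, edgeR adjusted p = 0.0849). The metallothionein MT1F, at between 1.93 and 2.01 CPM with siNT, lay between 2.99 and 3.46 with siMyc and rose 1.63-fold (log2 fold change 0.70, SE 0.14, edgeR adjusted p = 0.000555).

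The 3 abundant metallothioneins did not pass the test. MT2A had 153, 145 and 152 CPM with siNT and 177, 172 and 149 with siMyc, MT1X had 13.1, 14.3 and 11.3 against 15.4, 14.6 and 14.2, and MT1E had 39.1, 37.9 and 37.3 against 41.9, 43.1 and 36.0. The groups overlapped in each, and the log2 fold changes were 0.11 (SE 0.061), 0.15 (SE 0.086) and 0.05 (SE 0.07). The copper channel SLC31A1 (CTR1) had 105, 111 and 105 CPM with siNT and 101, 98.7 and 111 with siMyc, which overlap. Its relative SLC31A2 (CTR2), found on endosomes and lysosomes, rose from 66.3, 66.8 and 65.8 CPM to 83.2, 78.5 and 81.6 (log2 fold change 0.26, SE 0.052, edgeR adjusted p = 0.00068).

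After the same knockdown in parental 231 cells, 0 of the 32 metal genes tested passed edgeR's threshold, where 0.594% of all 23728 genes did. At an unadjusted p under 0.05 there were 9 of the 32 and 14.6% of all genes, and DESeq2 called 3 metal genes higher and 1 lower, with 4.68% of all genes called. With a factor for the pair of libraries in the edgeR fit, 9 rose and 6 fell, where 13.7% of all genes rose and 13.1% fell. Without both libraries, 9 rose and 5 fell, where 9.94% of all genes rose and 10.9% fell. Both settings were chosen after the data had been seen, from the deviations of these libraries.

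TFRC had 324, 446 and 423 CPM in parental 231+siNT and 247, 250 and 186 in parental 231+siMyc. The lowest value of each group belongs to the pair of libraries, and the groups did not overlap. The log2 fold change was -0.80 (SE 0.16, edgeR adjusted p = 0.0742) and -0.80 (SE 0.042, edgeR adjusted p = 2.8e-20) with the factor. It was -0.81 without the pair (edgeR adjusted p = 6.1e-07), and leaving out parental 231+siNT replicate 1 alone brought the adjusted p to 0.0418.

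FTL had 2270, 1690 and 1800 CPM with siNT and 2170, 2300 and 2690 with siMyc, and FTH1 had 2620, 1940 and 2240 against 2570, 2760 and 3040. Both overlapped between the groups through parental 231+siNT replicate 1, the highest siNT library for each. The log2 fold changes were 0.32 (SE 0.14) for FTL and 0.31 (SE 0.13) for FTH1, and with the factor they were 0.33 (SE 0.047, edgeR adjusted p = 1.2e-07) and 0.32 (SE 0.051, edgeR adjusted p = 3.2e-06). SLC40A1 had 10.1, 10.1 and 11 CPM with siNT and 14.0, 16.1 and 12.3 with siMyc, without overlap (log2 fold change 0.45, SE 0.12, edgeR adjusted p = 0.143, and 7.4e-06 with the factor). SLC11A2 had 27.7, 37.3 and 34.5 against 30.9, 30.1 and 23.5 CPM (log2 fold change -0.23, SE 0.15, edgeR adjusted p = 0.564, and 0.000757 with the factor).

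MT2A, the most abundant metallothionein, had 385, 298 and 298 CPM with siNT and 378, 333 and 533 with siMyc. The highest library of each group was again one of the pair, and the groups overlapped (log2 fold change 0.35, SE 0.19, edgeR adjusted p = 0.455, and 2.2e-06 with the factor). MT1X had 37.3, 22.6 and 27.3 against 28.3, 29.6 and 38 CPM, and MT1E 85.5, 52.8 and 53.7 against 67.2, 58.1 and 76.6, both with overlap. MT1X passed with the factor (log2 fold change 0.16, edgeR adjusted p = 0.0468) and not without the pair (0.21, edgeR adjusted p = 0.08), and MT1E passed without the pair (0.23, edgeR adjusted p = 0.0197) and not with the factor (0.11, edgeR adjusted p = 0.53). SLC30A1 had 87.7, 102 and 93.8 against 108, 111 and 91.3 CPM (log2 fold change 0.14, SE 0.11). It was higher with the factor (0.14, SE 0.044, edgeR adjusted p = 0.0151) and without the pair (0.16, SE 0.053, edgeR adjusted p = 0.0462). With the factor, SLC31A2, SLC39A11 and SLC39A13 were also higher, by log2 fold changes of 0.37, 0.37 and 0.23. SLC30A6, SLC39A8, SLC39A14 and SLC30A5 were lower with it, at -0.26, -0.22, -0.18 and -0.14. MT1F and SLC39A6, both called in 231:TKO, passed neither with the factor nor without the pair. MT1F lay between 2.03 and 3.07 CPM with siNT and between 2.83 and 3.64 with siMyc. SLC39A6 lay between 82.3 and 101 CPM with siNT and between 76.6 and 94.5 with siMyc. SLC31A1, with 80.5, 94.8 and 97.1 CPM against 90.5, 95.2 and 79.1, and SLC39A10, with 51.9, 65.9 and 61.7 against 67.0, 62.4 and 47.7, overlapped between the groups. They passed in neither fit, with log2 fold changes of -0.03 and -0.01 without the factor.

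**Figure D3:**
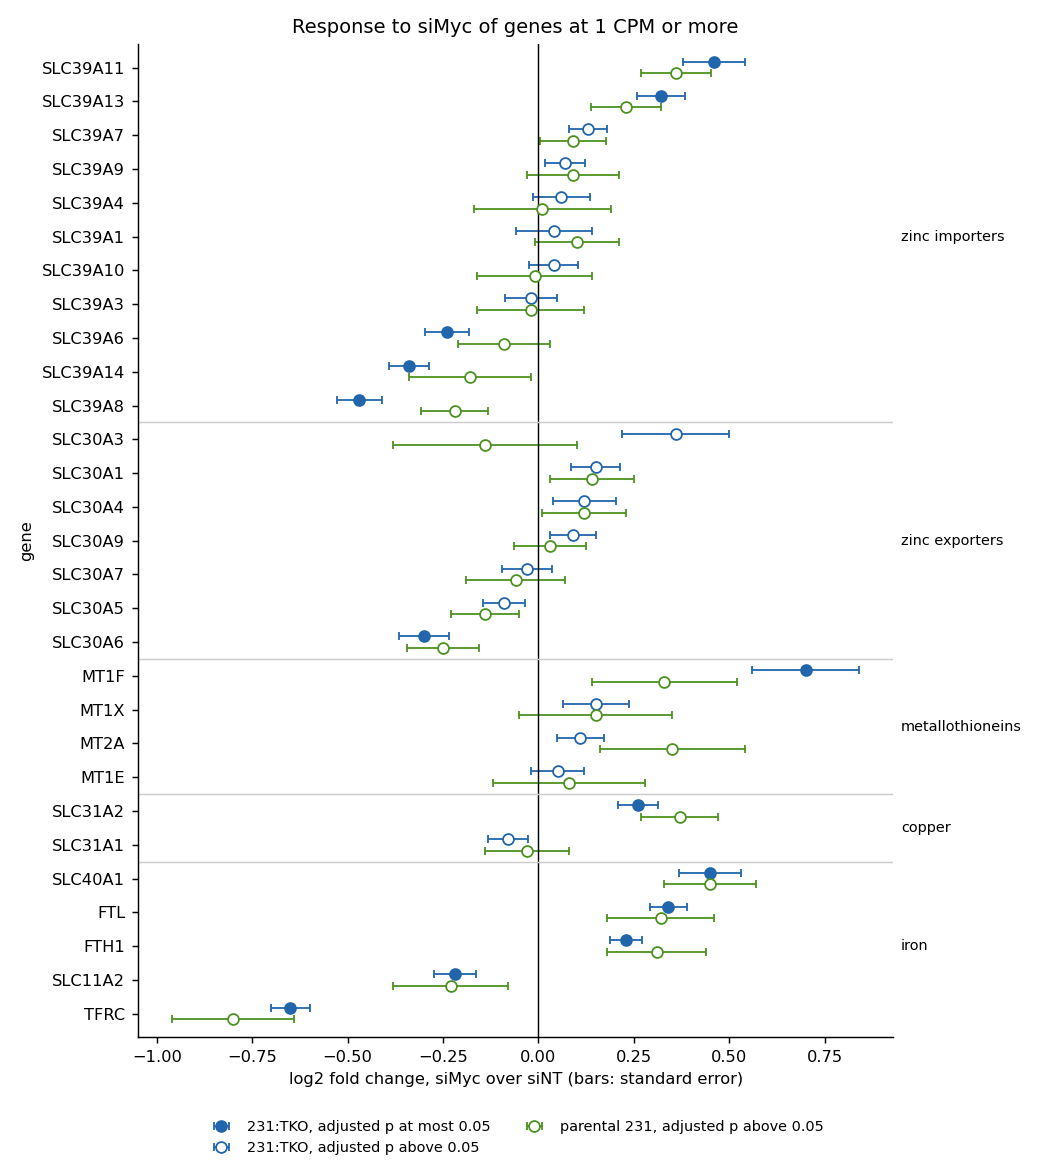
Log2 fold change of siMyc over siNT (x axis) for the 29 metal genes at a mean of 1 CPM or more (y axis, grouped by class), in 231:TKO (blue) and parental 231 (green), with standard errors as bars. Filled points passed an adjusted p of 0.05 in the edgeR fit of each population without a factor. TFRC lies farthest left in both, at -0.65 and -0.80.

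The responses to siMyc in the populations were compared by an interaction contrast over the 12 siRNA-treated libraries. With edgeR, 0 of 33 metal genes and 0.0% of all 25812 genes passed the threshold, and at an unadjusted p under 0.05 there were 1 of 33, SLC39A5, which is nearly silent, and 4.03% of all genes. DESeq2 called 0 metal genes too, and 0.0232% of all genes. With the factor for the pair 0.57% of all genes passed, and without the pair 0.252%, with 0 metal genes in each. For TFRC the response in 231:TKO minus that in parental 231 was 0.18 on the log2 scale (SE 0.17), for FTL 0.04 (SE 0.15), for FTH1 -0.05 (SE 0.13), for SLC40A1 0.03 (SE 0.15) and for MT2A -0.21 (SE 0.21). With the factor the SEs of TFRC, FTL and FTH1 were 0.069, 0.068 and 0.068. Missing the threshold does not show that the responses were equal. Of the 29 genes at 1 CPM or more, 27 had the same sign in both populations (93.1%), as had 82.7% of all 13413 genes at that level. Of the 13 genes called in 231:TKO, 13 had the same sign in parental 231, as had 97.3% of all genes called in 231:TKO.

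The difference between 231:TKO and parental 231 was measured first in untreated cells. Ferritin, MT2A, MT1E and the zinc exporters SLC30A1 and SLC30A9 were higher in 231:TKO. These were 6 of the 30 metal genes tested, with 0 lower by edgeR's test, where 5.43% of all 19965 genes tested were higher and 4.18% lower. At an unadjusted p under 0.05 there were 9 higher and 2 lower (25.9% of all genes in either direction), and DESeq2 called 7 metal genes in either direction (11.2% of all genes). No importer of 11 and no copper gene passed. The count rests on 2 libraries a group: leaving out 1 library gave between 0 and 12 genes higher and between 0 and 6 lower, with 0 when either parental 231 library was left out and 10 and 12 when 231:TKO replicate 1 or 2 was. Each of these fits leaves 1 library in a group, which is assumed to vary like the 2 of the other group.

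FTL had 758 and 732 CPM in parental 231 and 1220 and 1250 in 231:TKO, 1.66-fold higher (log2 fold change 0.73, SE 0.06, edgeR adjusted p = 0.00735). FTH1 had 175 and 170 against 230 and 232 CPM (log2 fold change 0.41, SE 0.057, edgeR adjusted p = 0.0184). The groups did not overlap for either chain. SLC40A1, at 4.02 and 4.08 CPM in parental 231 and 5.83 and 5.49 in 231:TKO, did not pass (log2 fold change 0.48, SE 0.17, edgeR adjusted p = 0.159). TFRC had 527 and 514 against 536 and 647 CPM (log2 fold change 0.18, SE 0.1), with the 231:TKO replicates farther apart than the group means. SLC11A2 had 36.9 and 38.3 against 36.3 and 38.6 CPM, overlapping fully.

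MT2A (ENSG00000125148, chr16:56608584-56609497) had 76.0 and 73.8 CPM in parental 231 and 117 and 112 in 231:TKO, 1.52-fold higher (log2 fold change 0.60, SE 0.062, edgeR adjusted p = 0.011). MT1E (chr16:56625475-56627112) had 13.8 and 12.9 against 26.5 and 43.4 CPM. It was close to the threshold (log2 fold change 1.38, SE 0.26, edgeR adjusted p = 0.0479) and missed it with no filter on low counts (0.0822) or with offsets for gene length (0.0591). MT1X (chr16:56682470-56684196) had 4.78 and 2.44 against 5.60 and 6.49 CPM, without overlap and short of the threshold (log2 fold change 0.74, SE 0.34). Reads from near-identical metallothionein copies can be split by the counting or left out of it. The 13 further annotated copies held between 0.326% and 1.0% of the counts of this family over all libraries. Reads left out do not show in this share.

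SLC30A1 (chr1:211571568-211579161) had 66.6 and 68.8 CPM in parental 231 and 93.5 and 101 in 231:TKO, 1.43-fold higher (log2 fold change 0.51, SE 0.072, edgeR adjusted p = 0.019). SLC30A9 (chr4:41990502-42090461), a mitochondrial zinc transporter, had 79.2 and 84.6 against 112 and 117 CPM (log2 fold change 0.48, SE 0.068, edgeR adjusted p = 0.0199). The 49 genes at 1 CPM or more within its 20 Mb of chromosome 4 had a median log2 fold change of 0.53, and relative to them SLC30A9 was at -0.03. Around SLC30A1 the median was -0.01 and around MT2A 0.05. SLC39A10 had 167 and 163 CPM in parental 231 and 243 and 157 in 231:TKO, and its direction rests on replicate 1. SLC31A1 had 83.9 and 80.2 against 77.5 and 76.8 CPM and did not pass (edgeR adjusted p = 0.414).

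Under siNT the knockout comparison took in more libraries but set 231:TKO and parental 231 apart by library name number and annotation release as well, and these cannot be told apart from the knockout. It shares its siNT libraries with the siMyc comparisons above, so the values are not independent of them. TFRC, FTL, SLC11A2 and the copper transporters were higher in 231:TKO+siNT, and the metallothioneins, SLC30A1 and SLC39A4 were lower. Of 32 metal genes tested 10 were higher and 10 lower with edgeR, where 16.1% of all 23310 genes were higher and 20.7% lower. The iron genes were higher in 4 of 6 and lower in 0, the metallothioneins higher in 0 of 5 and lower in 4. Gene length ran with the fold changes of this comparison over all genes (Spearman rho 0.28). With offsets for gene length 11 were higher and 10 lower (40.3% of all genes in either direction), among them the 20 called without the offsets, plus FTH1.

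FTL had 2270, 1690 and 1800 CPM in parental 231+siNT and 4010, 4410 and 4080 in 231:TKO+siNT, 2.23-fold higher (log2 fold change 1.16, SE 0.11, edgeR adjusted p = 1.7e-05). FTH1 overlapped, at 2620, 1940 and 2240 against 2240, 2300 and 2260 CPM (log2 fold change 0.04, SE 0.11, edgeR adjusted p = 0.811). It reached the threshold without parental 231+siNT replicate 1 (log2 fold change 0.17, edgeR adjusted p = 0.0337) and with the length offsets (0.32 and 0.00639). FTL was at 1.31 on the log2 scale without that library and kept its call.

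TFRC had 324, 446 and 423 CPM in parental 231+siNT and 776, 738 and 784 in 231:TKO+siNT, 1.98-fold higher (log2 fold change 0.98, SE 0.12, edgeR adjusted p = 8.0e-05). SLC11A2 went the same way, with 27.7, 37.3 and 34.5 against 55.8, 57.1 and 54.7 CPM (log2 fold change 0.79, SE 0.12, edgeR adjusted p = 0.000313). Neither overlapped between the groups. Without parental 231+siNT replicate 1 their log2 fold changes were 0.87 and 0.69, and both kept the call. SLC40A1 had 10.1, 10.1 and 11 against 13.7, 12.6 and 12 CPM (log2 fold change 0.34, SE 0.1, edgeR adjusted p = 0.0251), and lost the call when any 231:TKO+siNT library or parental 231+siNT replicate 2 was left out. Its 54 neighbours on chromosome 2 had a median of 0.39, and relative to them it was at -0.02.

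MT2A had 385, 298 and 298 CPM in parental 231+siNT and 153, 145 and 152 in 231:TKO+siNT, 2.13-fold lower (log2 fold change -1.09, SE 0.11, edgeR adjusted p = 2.0e-05). MT1X had 37.3, 22.6 and 27.3 against 13.1, 14.3 and 11.3 CPM (log2 fold change -1.13, SE 0.17, edgeR adjusted p = 0.000474) and MT1E 85.5, 52.8 and 53.7 against 39.1, 37.9 and 37.3 (log2 fold change -0.71, SE 0.17, edgeR adjusted p = 0.0076). No library of one group reached into the other. Parental 231+siNT replicate 1 was the highest library for each of the 3, and without it the log2 fold change of MT1E was -0.43, that of MT1X -0.90 and that of MT2A -0.94, all still called. The summed level of the 6 metallothioneins was 511, 376 and 382 CPM in parental 231+siNT and 208, 199 and 202 in 231:TKO+siNT. MT1M, with 0.0864, 0.166 and 0.107 CPM in parental 231+siNT and 0 counts in all 3 libraries of 231:TKO+siNT, passed too but lay near 3 counts.

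SLC30A1 had 87.7, 102 and 93.8 CPM in parental 231+siNT and 59.5, 55.3 and 59.2 in 231:TKO+siNT, 1.59-fold lower (log2 fold change -0.67, SE 0.093, edgeR adjusted p = 0.000219), and the log2 fold change was -0.70 without parental 231+siNT replicate 1. SLC39A4, known as the zinc importer of the intestine, had 39, 29.2 and 30.5 against 17.2, 18.3 and 17.0 CPM (log2 fold change -0.87, SE 0.12, edgeR adjusted p = 0.000169, and -0.72 without that library). SLC30A10 was 3.55-fold lower, at between 1.54 and 1.86 against between 0.275 and 0.649 CPM, and SLC39A3, SLC39A8 and SLC30A9 were lower by log2 fold changes of -0.44, -0.38 and -0.29. SLC39A3 had 47.3, 36.3 and 38.8 CPM in parental 231+siNT and 30.1, 29.9 and 27.8 in 231:TKO+siNT, and SLC39A8 had 76.7, 83.1 and 82.2 against 59.6, 60.0 and 61.4, both without overlap. SLC39A3 and SLC39A8 lost the call when set against their neighbours (log2 fold changes of -0.12 and -0.24, edgeR adjusted p = 0.392 and 0.0688). SLC39A8 is also the only member whose length differs between the annotation releases. It has 6480 bases in the release used for 231:TKO+siNT and 8482 in that for parental 231+siNT. What this did to its counts was not tested.

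Other exporters were higher. SLC30A7, which fills the early secretory pathway with zinc, had 31.3, 30.3 and 26.4 CPM in parental 231+siNT and 46.0, 43.9 and 47.1 in 231:TKO+siNT (log2 fold change 0.67, SE 0.097, edgeR adjusted p = 0.000271). SLC30A5, its neighbour in function, had 55.7, 58.1 and 56.7 against 70.4, 66.6 and 67.0 CPM (log2 fold change 0.29, edgeR adjusted p = 0.0179), and SLC30A3, the zinc transporter of synaptic vesicles, went from between 0.799 and 1.22 CPM to between 2.51 and 3.06 (log2 fold change 1.57, SE 0.21). SLC39A10 had 51.9, 65.9 and 61.7 against 89.3, 78.9 and 89.2 CPM (log2 fold change 0.56, SE 0.11, edgeR adjusted p = 0.00217), where its chromosome 2 neighbours had a median of 0.37 and it lost the call against them. Of the copper genes, SLC31A2 had 49.3, 43.0 and 41.7 against 66.3, 66.8 and 65.8 CPM (log2 fold change 0.61, SE 0.093, edgeR adjusted p = 0.000421) and SLC31A1 80.5, 94.8 and 97.1 against 105, 111 and 105 (log2 fold change 0.27, SE 0.097, edgeR adjusted p = 0.045). SLC31A1 lost the call when any 231:TKO+siNT library or parental 231+siNT replicate 2 was left out, SLC30A5 without 231:TKO+siNT replicate 1 or 3, and SLC39A3 without replicate 3.

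**Figure D4:**
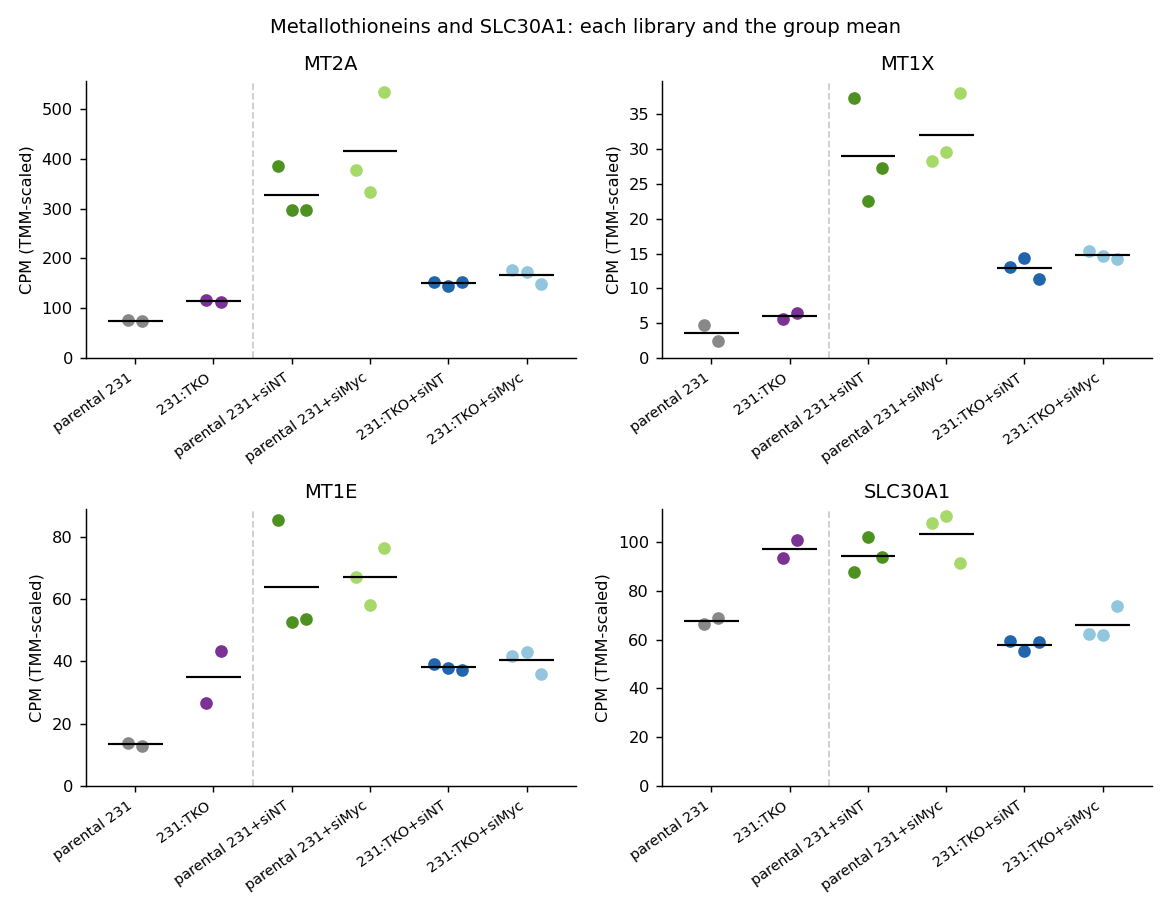
CPM (y axis, from 0) of MT2A, MT1X, MT1E and SLC30A1 in each library (points) and the group mean (line) for the 6 groups (x axis), with libraries counted as single reads left of the dashed line. Left of it, the 231:TKO points of MT2A (112 and 117 CPM) and SLC30A1 (93.5 and 101) are above parental 231 (73.8 and 76.0, 66.6 and 68.8), and right of it the 231:TKO+siNT points (145 to 153, 55.3 to 59.2) are below parental 231+siNT (298 to 385, 87.7 to 102).

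The knockout difference under siNT was set against that in untreated cells by an interaction contrast over the 10 libraries. It differed for 11 of 32 metal genes with edgeR, 4 with a higher value under siNT (6.2% of all 25112 genes) and 7 with a lower one (7.91%). The untreated libraries are single reads and the others pairs, so siNT cannot be told apart from the library type, the library name number or, for parental 231, the annotation release. MT2A, MT1E and the exporters SLC30A1 and SLC30A9 were higher in untreated 231:TKO and lower under siNT, whereas the exporters SLC30A3 and SLC30A7 differed the other way (differences of 2.33 and 0.96). SLC30A9 was at 0.48 in untreated cells, where its neighbours had a median of 0.53, and its difference lost the call against them. SLC30A3 lay between 0.0686 and 0.712 CPM in untreated cells, and its call was lost in most fits that left out 1 library. MT2A went from 0.60 untreated to -1.09 under siNT, a difference of -1.70 (SE 0.17, edgeR adjusted p = 1.3e-05). SLC30A1 went from 0.51 to -0.67, a difference of -1.18 (SE 0.14, edgeR adjusted p = 6.4e-05). MT1E differed by -2.10 (SE 0.35) and MT1X by -1.88 (SE 0.38). TFRC went from 0.18 to 0.98, a difference of 0.80 (SE 0.18, edgeR adjusted p = 0.00734), and SLC11A2 from -0.01 to 0.79 (difference 0.80, SE 0.17, edgeR adjusted p = 0.00466). FTL, higher in both settings, differed by 0.42 (SE 0.17, edgeR adjusted p = 0.124). Without parental 231+siNT replicate 1 the differences were -1.61 for MT2A, -1.28 for SLC30A1, -1.87 for MT1E, -1.70 for MT1X, 0.63 for TFRC and 0.64 for SLC11A2, all still called. FTL (0.52, edgeR adjusted p = 0.000892) and FTH1 (-0.31, edgeR adjusted p = 0.0429, against -0.38 and 0.158 with all libraries) then passed as well.

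**Figure D5:**
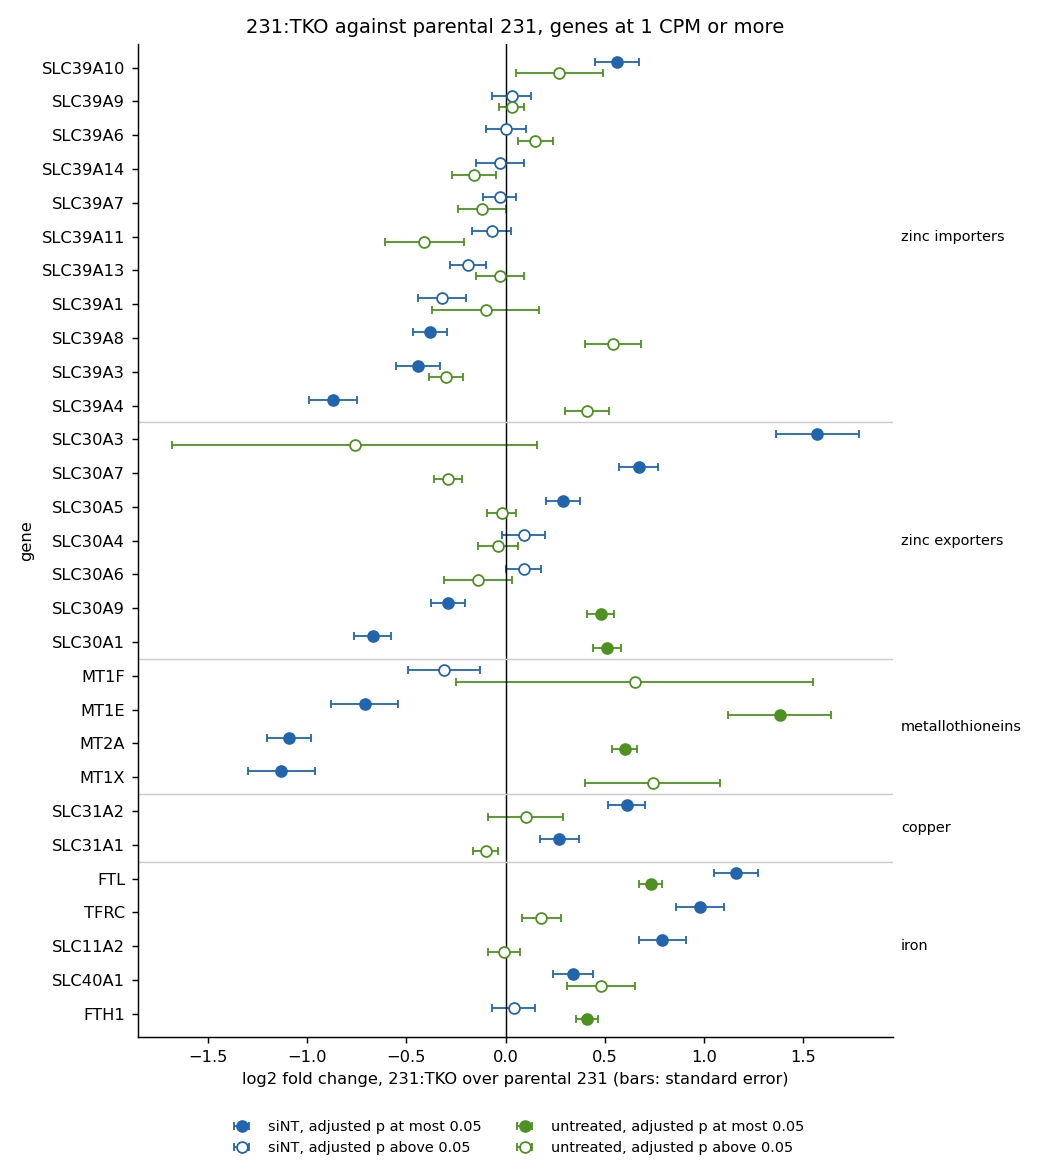
Log2 fold change of 231:TKO over parental 231 (x axis) for the 29 metal genes at a mean of 1 CPM or more (y axis, grouped by class), under siNT (blue) and untreated (green), with standard errors as bars and filled points past an edgeR adjusted p of 0.05. FTL is right of 0 in both (1.16 and 0.73), while MT2A (-1.09 and 0.60) and SLC30A1 (-0.67 and 0.51) change side.

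Genes that surround these in metal metabolism were taken from 3 further lists, of 30 wider iron, 20 wider zinc and copper and 28 iron-sulfur cluster and haem genes. In 231:TKO+siMyc against 231:TKO+siNT, 6 iron genes rose and 5 fell of 23 tested, 3 zinc and copper genes rose and 5 fell of 16, and 6 iron-sulfur and haem genes rose and 13 fell of 28, where 13.3% of all genes rose and 13.9% fell. The median log2 fold change of the last list was -0.15, against 0.01 over all genes. STEAP1, a member of the metalloreductase family that readies iron and copper for transport, fell (log2 fold change -1.33, SE 0.079, edgeR adjusted p = 1.4e-10). PROM2, linked to the export of ferritin, rose (1.24, SE 0.12), as did the iron reductase CYBRD1 (0.51, SE 0.048). ISCA1, which helps to build iron-sulfur clusters, fell by 0.72 on the log2 scale (SE 0.065). SLC46A3, a lysosomal membrane transporter, and CCS, the copper chaperone of SOD1, rose by 0.38 and 0.34 on the log2 scale, and the cytochrome oxidase assembly factor COX11 had a log2 fold change of -0.19.

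In parental 231+siMyc, where 0.594% of all genes passed, 2 genes of these lists did, in the same directions: STEAP1 (log2 fold change -1.17, SE 0.13, edgeR adjusted p = 0.0378) and PROM2 (0.75, SE 0.11, edgeR adjusted p = 0.0412). The median of the iron-sulfur and haem list was -0.05 there. The interaction contrast passed for 0 genes of the 3 lists.

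In untreated 231:TKO, 5 wider iron genes were higher and 1 lower of 24, 2 zinc and copper genes higher and 1 lower of 14, and 4 iron-sulfur and haem genes higher and 0 lower of 28, where 5.43% of all genes were higher and 4.18% lower. The STEAP family members STEAP1, STEAP2 and STEAP3 were higher by log2 fold changes of 1.89 (SE 0.15), 1.32 (SE 0.16) and 0.51 (SE 0.068). The haem synthesis enzymes CPOX and FECH were higher too (1.13 and 0.82), as were the copper chaperone ATOX1 (0.74) and the copper and zinc enzyme SOD1 (0.35), and SLC46A3 was lower (-1.40, SE 0.2). Under siNT, 5 wider iron genes were higher and 5 lower of 24, 2 zinc and copper genes higher and 5 lower of 15, and 4 iron-sulfur and haem genes higher and 16 lower of 28. Over all genes 16.1% were higher and 20.7% lower, and the median log2 fold change was -0.33 in the last list against -0.03 over all genes. STEAP2 was higher there too (1.59, SE 0.17), as was MTF1, the metal-sensing transcription factor (0.58, SE 0.17, edgeR adjusted p = 0.0208). SLC46A3 and CPOX turned: SLC46A3 was higher under siNT (0.37, edgeR adjusted p = 0.0102) and CPOX lower (-0.25, edgeR adjusted p = 0.036), and by the interaction contrast these differed from the untreated values by 1.77 and -1.38 (edgeR adjusted p = 5.5e-05 and 1.9e-05). The haem enzyme PPOX and the iron-sulfur assembly factor CIAO3 were lower (-0.62 and -0.62), as were TFR2, a relative of TFRC (-1.49), PROM2 (-1.24), the zinc transporter TMEM163 (-1.30) and SCO2, a copper chaperone of cytochrome oxidase (-0.66).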

How the data were processed

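STAR alignments to GRCh38 were counted per gene by the authors with featureCounts 1.6.3, on the reverse strand, and the raw counts were deposited for each library without normalization. The file headers name Ensembl release 102, or 104 for parental 231 with siRNA, and 37 of the 38 genes are equally long in the releases. The exception, SLC39A8, has 6480 bases in release 102 and 8482 in release 104. Of the identifiers, 96.7% matched a symbol.

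Groups were taken from the labels. Genes whose counts in the libraries of a comparison summed to more than 5 entered edgeR 4.0.16, run in R 4.3.3 (TMM, robust quasi-likelihood test, Benjamini-Hochberg adjustment over all genes, threshold 0.05), after tests on simulated data. Interaction contrasts used 12 or 10 libraries. The members and lists were chosen with earlier results of these data known. Per-library values are given for TFRC, FTH1, FTL, SLC40A1, MT2A, MT1X, MT1E, SLC30A1, SLC39A10, SLC31A1 and SLC11A2. For up to 8 other called genes a comparison, with the largest fold changes at 1 CPM or more, these or their range are given. From the wider lists, the 3 called genes with the largest changes are named, except some that are not reported here. Alternatives included DESeq2 1.42.0, limits on fold change, each library left out, and, added after the data had been seen, the pair of parental 231 libraries as a factor or left out and offsets for gene length. Measurements other than RNA sequencing were not analysed here.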

Additional observations from a re-analysis of the deposited data

Results flagged for a closer look

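The knockout difference of 11 metal genes was not the same under siNT as in untreated cells by the interaction contrast of edgeR over 10 libraries (adjusted p of at most 0.05). The log2 difference under siNT minus that in untreated cells was -2.10 for MT1E, -1.88 for MT1X, -1.70 for MT2A, -1.29 for SLC39A4, -1.18 for SLC30A1, -0.92 for SLC39A8 and -0.77 for SLC30A9. It was 2.33 for SLC30A3, 0.96 for SLC30A7, 0.80 for TFRC and 0.80 for SLC11A2. SLC30A3 had between 0.0686 and 0.712 CPM in the untreated libraries, and its call was lost in 8 of the 10 fits that left out 1 library and with offsets for windows of 20 Mb (adjusted p = 0.145). SLC39A8 and SLC30A9 lie on chromosome 4, where the genes around them had median differences of -0.70 and -0.31, and with window offsets their differences were -0.30 and -0.27 (adjusted p = 0.17 and 0.21). The reads (single or paired), the library name number, the siRNA treatment and, for parental 231, the annotation release changed together in this contrast and cannot be told apart. SLC39A8 has 6480 bases in release 102 and 8482 in release 104, and what this did to its difference was not tested.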

How the results depend on the processing

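Over the members named in the text, 1397 of the values from alternative settings kept their direction and side of the threshold, 41 passed newly, 77 no longer passed and 3 reversed. In untreated 231:TKO, SLC30A9 was at -0.03 with offsets for windows of 20 Mb and SLC39A10 at -0.09 without 231:TKO replicate 1 (adjusted p = 0.0463) and 0.55 without replicate 2 (such a fit takes the spread from the parental 231 libraries), and under siNT SLC40A1 was at -0.02 with window offsets. The count of members higher in untreated 231:TKO was 1 at an adjusted p of at most 0.01, and 0 to 12 when 1 library was left out. The count lower was 1 with window offsets and 0 to 6 with 1 library left out. In 231:TKO+siMyc, a log2 fold change of at least 0.5 left 1 higher and 1 lower, and 1 fit of the 12 siRNA libraries left 2 lower. In parental 231+siMyc, members higher numbered 3 in the 12-library fit, 3 with DESeq2, 9 without the pair of libraries, 9 with its factor and 2 with length offsets. Those lower numbered 1, 1, 5, 6 and 1 in the same settings, 1 with no filter, and 0 to 1 with 1 library left out. For the knockout difference between siNT and untreated cells, members higher were 7 with length offsets and 3 to 7 with 1 library left out. The cause was not tested. The deviations gave no sign that the shared replicate numbers pair the samples: those of same-numbered libraries correlated between -0.783 and 0.595, and libraries did not all correlate best with their own number. In the untreated groups of 2 the deviations are mirror images and cannot show pairing. In parental 231 with siRNA the highest correlation, 0.882, was that of the pair of libraries that stood apart. With the replicate number as a block, 4 members were higher and 0 lower in untreated 231:TKO, 9 and 11 under siNT, and 10 and 6 in 231:TKO+siMyc. Where no share of all genes called stands beside them, such counts show only how the calls vary with the setting.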
